A study of Mus musculus with 2 samples.

Results

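In mouse liver, 8 genes of major histocompatibility complex (MHC) class II antigen presentation were followed, out of 18193 genes that had at least 1 probe set of their own on the array. They were the classical chains H2-Aa, H2-Ab1 and H2-Eb1, the peptide-loading chains H2-DMa and H2-DMb1, the modulator chain H2-Oa, the invariant chain Cd74 and the class II transactivator Ciita. The choice was by gene symbol: every probe set annotated with exactly 1 symbol was taken where that symbol was one of the 8. This gave 15 probe sets for 7 of the 8 genes, out of 34945 such probe sets on the array. H2-DMb1 had 0, since the probe sets that read it are also listed for its near copy H2-DMb2.

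Both groups were ICR mice, an outbred stock, 13 weeks old at collection, with no genetic change named in the labels. The control group ate the basal diet CRF-1, and the other group ate CRF-1 with diosgenin at 500 ppm for 4 weeks, starting at 9 weeks of age. Diosgenin is a steroidal sapogenin made by yams and other plants. Each group was 1 Affymetrix array of liver RNA pooled from 3 mice, so no error between mice can be given and no test was made. The labels put 3 mice in a cage without saying how cages were divided between the diets, so cage and diet may not be separable here. Signals are linear intensities in arbitrary units. All differences below are between 2 pools, and "higher" and "lower" describe the diosgenin array.

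Class II molecules are pairs of an alpha and a beta chain that show peptides from engulfed proteins to CD4+ T cells. The pairs assemble in the endoplasmic reticulum around the invariant chain, which fills the groove and steers them to endosomes. There cathepsins cut the invariant chain down, and H2-DM swaps its last fragment for a peptide, a step that H2-O restrains. In liver, class II is carried mainly by Kupffer cells, dendritic cells and B cells, and little by hepatocytes. Transcription depends on Ciita, a coactivator without DNA contact of its own that docks on RFX, CREB and NF-Y proteins bound to the X and Y boxes of class II promoters. Interferon gamma switches Ciita on, in part through IRF1.

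The promoters are shown because the shared X and Y boxes are what ties these genes to 1 regulator. RefSeq sequences of the mouse assembly GRCm38.p6, a C57BL/6J genome, were matched by symbol, with windows from 250 bases before to 50 bases after a start site. Windows were read for 5 of the 8 members, and 1 of these, H2-DMa, had more than one. H2-Ab1 and Ciita had no window, and Cd74 was left out of this search, so its promoter was not tested. A pattern of GNAAC, the core of the X box, followed after 25 to 31 bases by ATTGG, the Y box, was found in 4 of the 5. It was read on both strands, and it was written after these promoters had been seen, so its presence in them is a description. Of the 32851 windows of the same length that were read, 1.25% held the pattern, 37.4% held ATTGG alone and 84.8% held GNAAC alone. The stretches are given 5′ to 3′ on the strand of the gene, and capitals mark the 2 boxes. They lie at chr17:34287852-34287924 on the minus strand for H2-Aa, and on the plus strand at chr17:34305756-34305827 for H2-Eb1, chr17:34153077-34153149 for H2-DMb1 and chr17:34092283-34092355 for H2-Oa.
H2-Aa: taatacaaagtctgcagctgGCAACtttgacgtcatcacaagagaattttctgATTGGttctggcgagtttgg
H2-Eb1: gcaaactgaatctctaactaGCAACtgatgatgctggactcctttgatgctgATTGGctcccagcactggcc
H2-DMb1: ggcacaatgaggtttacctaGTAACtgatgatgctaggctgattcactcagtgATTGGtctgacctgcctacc
H2-Oa: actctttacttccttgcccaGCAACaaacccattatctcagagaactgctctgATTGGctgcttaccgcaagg

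The spacing between the boxes was 28 bases in H2-Aa, H2-DMb1 and H2-Oa and 27 in H2-Eb1. The pattern allowed only 25 to 31 bases, so a narrow range of spacing was set by the search. The X core began 81 bases before the start site in H2-Aa, 91 in H2-Eb1, 94 in H2-DMb1 and 76 in H2-Oa. Among the other class II chains with a window, H2-Eb2 and H2-Ob held the pattern, with 27 and 25 bases between the boxes, and H2-DMb2 did not. Neither window of H2-DMa held it. Of the members in which the pattern was found, only H2-Eb1 and H2-Aa could be compared on the arrays. Both were higher by their brightest probe set. H2-Oa was under the floor on both arrays, and H2-DMb1 had no probe set of its own.

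Of the classical chains, H2-Eb1 and H2-Aa gave the largest gene-level differences of the members above the filter, and H2-Ab1 the smallest. H2-Eb1, the beta chain of the E molecule, had a control signal of 69.98 and a diosgenin signal of 188, which is 2.68-fold higher. It ranked 12th highest of the 9731 genes whose mean signal reached 28.4, the filter used below. Its single probe set, 1417025_at, carries no letter for shared transcripts, so there was no second reading of this gene. Among the 6866 probe sets within 2-fold of its brightness the central 95% of log2 ratios ran from −0.62 to 0.59, and H2-Eb1 stood at 1.42.

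H2-Aa, the alpha chain of the A molecule, was read by 4 probe sets that differed among themselves. The brightest by the mean of both arrays, 1435290_x_at, gave 118 and 175, or 1.48-fold higher, and 1438858_x_at gave 65.7 and 109, or 1.66-fold higher. The probe set 1452431_s_at gave 139.8 and 139.4, a log2 ratio of −0.0042. The fourth, 1443783_x_at, gave 1.91 and 1.79, far under the floor of 10.7 below which signals were not ordered. Of the 3 readings of H2-Aa above the filter, 2 were therefore higher, and the other was nearly equal on both arrays, a range of 0.74 in log2 ratio.

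H2-Ab1, the beta chain that pairs with H2-Aa, was higher by all 3 of its probe sets, by unequal amounts. Signals were 107 and 127 for 1450648_s_at, 64.2 and 92.6 for 1451721_a_at, and 25.2 and 57.2 for 1425477_x_at. These are 1.19-fold, 1.44-fold and 2.27-fold higher, and the largest ratio came from the dimmest probe set. The range of 0.94 in log2 ratio can be set beside a standard deviation of 0.28 between probe sets of the same gene over 4077 genes with several. The probe set of highest mean signal, which stands for the gene in the counts, gave the smallest of these differences.

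Cd74, the invariant chain, had signals of 274 and 367 by its only probe set, 1425519_a_at, which is 1.34-fold higher. Its log2 ratio of 0.42 lay inside the central 95% of the 4660 probe sets of like brightness, −0.54 to 0.48. H2-DMa, the alpha chain of the peptide-loading molecule, was at 32.6 and 41.0 by 1422527_at, 1.26-fold higher. Its other probe set, 1459872_x_at, went the other way at 32.2 and 19.5, 1.65-fold lower, with a mean under the filter. H2-DMa therefore had no common direction.

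The remaining members were too dim to compare. H2-Oa, which restrains H2-DM, was at 9.26 and 0.715, both under the floor. Of the 6 signals of Ciita, 1 was above the floor: 1421210_at gave a control signal of 10.0 and a diosgenin signal of 19.2. The other Ciita probe sets read 9.59 and 1.10 for 1447075_at and 1.02 and 1.35 for 1421211_a_at. The level of the transactivator could thus not be compared between the diets on these arrays. The 2 probe sets listed for both H2-DMb1 and H2-DMb2, which can be assigned to neither, read 13.8 and 9.37 for 1418638_at and 12.3 and 19.7 for 1449580_s_at, in opposite directions.

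**Figure D1:**
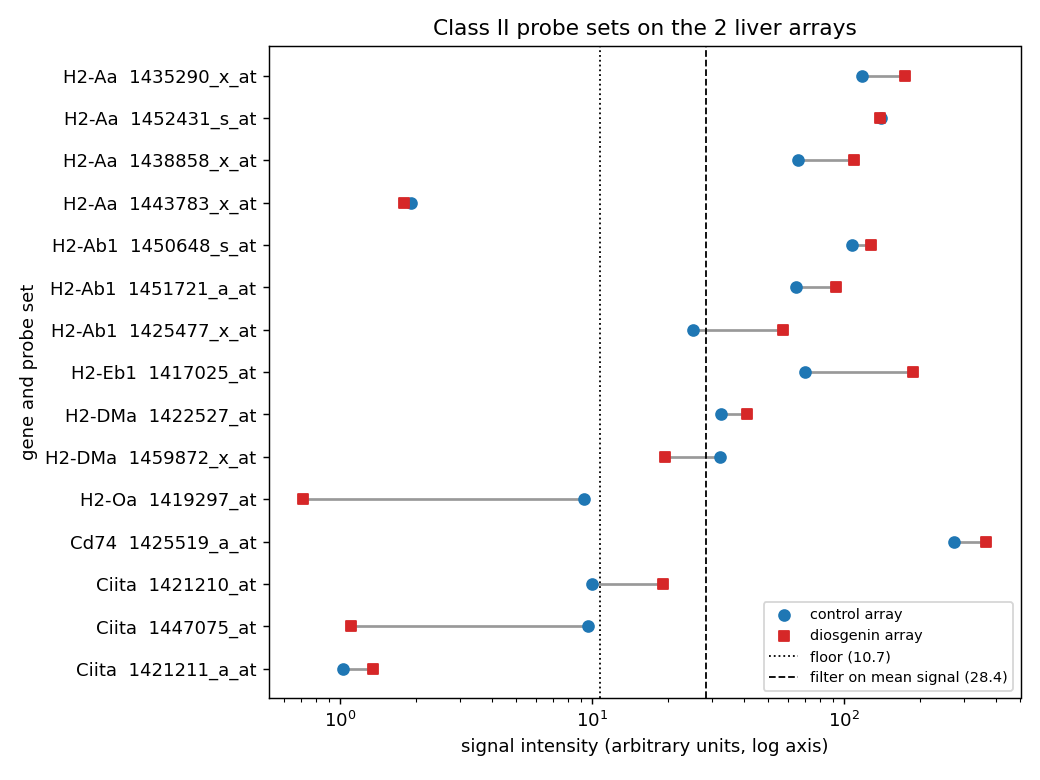
Signal intensity (arbitrary units, log axis) of each of the 15 class II probe sets on the control array (circles) and the diosgenin array (squares), 1 array of pooled RNA each; the dotted line is the floor and the dashed line the filter on mean signal. H2-Eb1 moves from 69.98 to 188, the H2-Aa probe set 1452431_s_at has both points together, and H2-Oa and most Ciita points lie left of the floor.

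Of the 15 probe sets 9 had a mean signal above the filter, and they read 5 of the 8 genes. A filter on the mean of both arrays favours a dim probe set that is bright on 1 of them, as for 1425477_x_at, so the counts describe the probe sets that passed and not all members. Of these 9, 8 were higher, and the remaining one, 1452431_s_at, was lower by a log2 ratio of −0.0042. Of all 16248 probe sets above the filter 8023 were higher. Their median log2 ratio was 0.53. At least 1.5-fold higher were 3 of the 9, against 3.25% of 16248 probe sets above the filter, and 0 were at least 1.5-fold lower, against 3.99%. Those 3 were the ones of H2-Eb1, H2-Aa (1438858_x_at) and H2-Ab1 (1425477_x_at), and each lay beyond the central 95% of probe sets of its own brightness. Without the filter, 9 of the 15 were higher, 2 lower and 4 under the floor on both arrays.

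Counted by gene, with the probe set of highest mean signal for each, all 5 genes above the filter were higher, against 49.0% of all 9731 genes. Their median log2 ratio was 0.42 against −0.0054 over all genes. Only H2-Eb1 of these 5 was at least 1.5-fold higher, against 2.84% of all genes, and it was also the 1 gene at least 2-fold higher, against 0.555%. None was at least 1.5-fold lower, against 3.61%, or at least 2-fold lower, against 0.853%. H2-Aa at 0.56 was just short of the 1.5-fold line of 0.58, and ranked 315th from the highest. Its probe set was chosen by the mean of both arrays, so the diosgenin signal took part in the choice. On the control array alone 1452431_s_at was the brighter, at 139.8 against 118, and its log2 ratio was −0.0042. Cd74 ranked 619th, H2-DMa 987th and H2-Ab1 1531st.

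**Figure D2:**
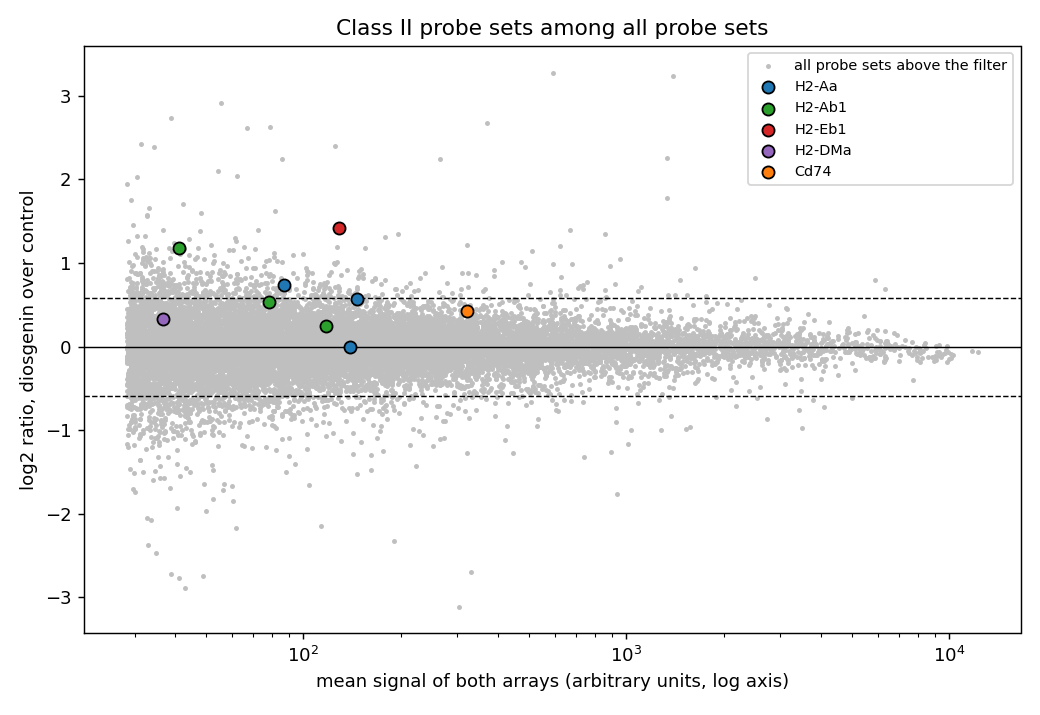
Log2 ratio of diosgenin over control against the mean signal of both arrays (arbitrary units, log axis) for all 16248 probe sets above the filter (grey) and the 9 of class II genes (coloured); dashed lines mark 1.5-fold. H2-Eb1 at 1.42 stands clear of probe sets of its brightness, while Cd74 and H2-DMa lie within the grey cloud.

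The signals depend on how the probes fit the alleles present. Class II genes are among the most polymorphic of the genome, ICR mice are not inbred, and the labels used here do not name the haplotypes of the mice in each pool. Of the 15 probe sets 10 end in _x_at, _s_at or _a_at, endings for probes that can also bind similar transcripts (5 and 2) or that read several transcripts of 1 gene (3). Among the 9 above the filter, 7 had such an ending and 2 did not. The 2 without were those of H2-Eb1 and H2-DMa, which gave log2 ratios of 1.42 and 0.33. With 1 pool per diet, a different mix of alleles in the pools and a difference by diet cannot be told apart.

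H2-Ea, the alpha chain that pairs with H2-Eb1, is not made in mice of some haplotypes, as in C57BL/6J. Its 2 probe sets above the filter disagreed in direction: 1422891_at gave 55.2 and 42.2, 1.31-fold lower, and 1422892_s_at gave 21.0 and 45.7, 2.18-fold higher. The control signal of 1422892_s_at was under the filter, which it passed through the diosgenin array. The remaining one, 1426202_at, was at 2.67 and 3.13, under the floor. H2-Eb2, a further E beta gene, gave 26.9 and 34.2, 1.27-fold higher. The partner of the member with the largest difference therefore had no settled direction.

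All members but Cd74 and Ciita are neighbours in the class II region of chromosome 17, and Ciita lies on chromosome 16. In RefSeq order the region held 9 protein-coding class II chains and 5 other protein-coding genes. H2-Ea is not among these 9, as RefSeq lists it as a transcribed pseudogene in this reference. The other 5 serve as a comparison at the same place in the genome: the peptide transporters Tap1 and Tap2 and the immunoproteasome subunits Psmb8 and Psmb9, which feed class I molecules, and Brd2, a chromatin reader. All 5 were above the filter, with log2 ratios from −0.15 to 0.12 and a median of 0.0092, and 0 were at least 1.5-fold apart. The 5 class II chains above the filter ran from 0.25 to 1.42, with a median of 0.35. That median was the ratio of H2-Eb2, whose control signal was under the filter, which it passed through the diosgenin array. The lowest of these chains, H2-Ab1, ranked 1531st from the highest of all 9731 genes above the filter, of which 49.0% were higher. These 5 chains and the genes between them did not overlap when each gene was read by its brightest probe set. They did overlap with H2-Ea counted, whose brightest probe set was at −0.39, or with the other probe sets of the chains, where 1452431_s_at of H2-Aa was at −0.0042 and 1459872_x_at of H2-DMa, under the filter, at −0.72.

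**Figure D3:**
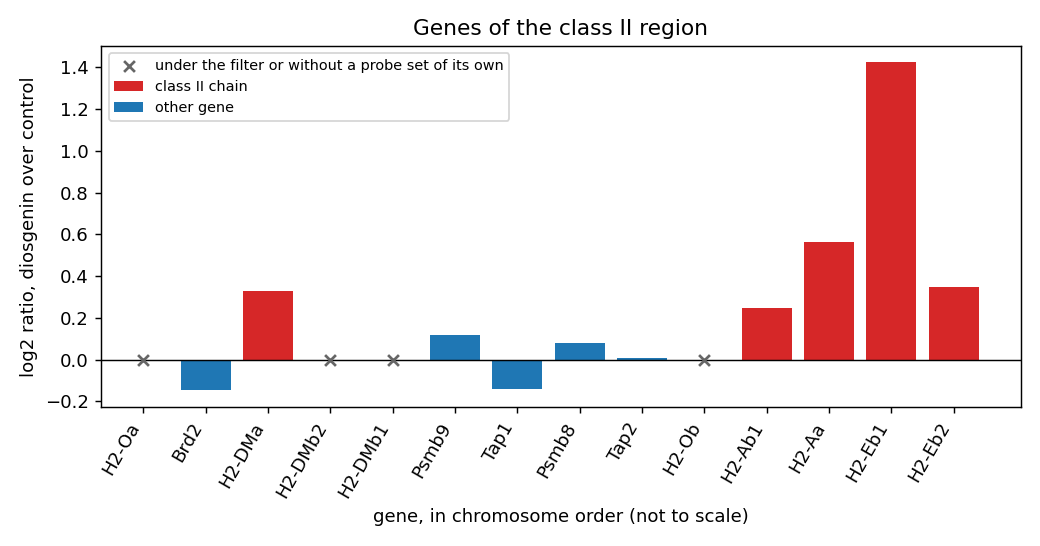
Log2 ratio of diosgenin over control for the protein-coding genes of the class II region in chromosome order (not to scale), each by its probe set of highest mean signal; crosses are genes under the filter or without a probe set of their own, and H2-Ea is not drawn. Class II chains run from 0.25 to 1.42, and the 5 other genes from −0.15 to 0.12.

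Other genes of the pathway were taken from 5 lists with 49 entries, of which 48 had a probe set of their own and 32 were above the filter. Higher signals were found for 22 of the 32 and lower ones for 10, and the median log2 ratio was 0.14, where 49.0% of all 9731 genes were higher and their median was −0.0054. At least 1.5-fold higher were 3 of the 32, Cst3, Cxcl9 and Gbp2, against 2.84% of all genes. At least 1.5-fold lower was 1, Bcl6, against 3.61%.

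The transcription factors and coactivators were split, with 5 of 9 measured above the filter higher, the other 4 lower and a median log2 ratio of 0.05. The proteins that bind the X and Y boxes, named for that role, had small differences. The RFX subunits Rfx5, Rfxap and Rfxank read 76.98 and 76.0, 88.2 and 86.0, and 58.6 and 76.2, with log2 ratios of −0.02, −0.04 and 0.38. The other probe sets gave 0.08 for Rfxap and 0.39 and −0.01 for Rfxank. Of the NF-Y subunits, which bind ATTGG, Nfya had a log2 ratio of 0.05, Nfyb 0.26 and Nfyc −0.23, and Creb1 was at 0.17. Bcl6, a transcriptional repressor, was at 238 and 85.6, 2.79-fold lower, and the median of its 2 probe sets was −1.48.

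Genes for antigen processing and surface turnover were mostly a little higher, 10 of 11 above the filter, with a median of 0.19. The exception was the cathepsin Ctsb, with a log2 ratio of −0.05 by its brightest probe set and ratios from −0.07 to 0.25 over all 4. Cst3, the cystatin C inhibitor of cathepsins, was at 319 and 703, 2.20-fold higher by an _a_at probe set. Cathepsin S (Ctss), which makes the last cuts in the invariant chain, was at 384 and 452, 1.18-fold higher. The endosomal thiol reductase Ifi30 was at 204 and 257, 1.26-fold higher, and Sppl2a, the protease that clears the stub of Cd74 from the membrane, at 806 and 983, 1.22-fold higher, though its other probe sets gave log2 ratios of −0.03 and 0.07. These 3 were named for their roles. All but Cst3 were under 1.5-fold.

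The interferon gamma route was split as well, with 5 of its 9 genes above the filter higher, the other 4 lower and a median log2 ratio of 0.16. Known readouts of the cytokine differed in size. The chemokine Cxcl9 was at 39.9 and 105, 2.64-fold higher, and the guanylate-binding protein Gbp2 at 25.8 and 62.8, 2.43-fold higher. The much brighter Iigp1 was at 2736 and 3056, 1.12-fold higher, with a log2 ratio of 0.33 by its other probe set. Socs1 was under the floor on both arrays. The control signal of Gbp2 was under the filter, which it passed through the diosgenin array. Other genes of the route were named for their roles. The receptor chain Ifngr1 had a log2 ratio of −0.43, and Irf1, which acts on the Ciita gene, one of −0.16. The chain Ifngr2 had no settled direction, with probe sets at −0.26 and 0.23. Ifng itself read 0.484 and 5.45, both under the floor.

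Costimulatory genes of antigen-presenting cells were nearly all dim. Of 7, only the adhesion molecule Icam1 was above the filter, at 68.9 and 70.2. The ligands of CD28, named for that role, were under it, Cd86 at 13.1 and 13.5 and Cd80 at 16.9 and 12.9.

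Markers of the cells that carry class II were measured on the same arrays, where more cells of a type and more RNA per cell cannot be told apart. Of 12 Kupffer cell and macrophage markers, all above the filter, 9 were higher and the other 3 lower, and the median log2 ratio was 0.16. Their signals summed to 2879.5 for the control diet and 3174 for diosgenin, 1.10-fold. The scavenger receptor Marco was the 1 marker past 1.5-fold, at 13.3 and 45.1, and it passed the filter through the diosgenin array. The 3 lower markers were Cd163, Adgre1 and Cd5l, with log2 ratios of −0.35, −0.06 and −0.02. Besides Marco, the higher ones were Clec4f at 0.36, C1qa and C1qc at 0.24, C1qb at 0.22 and Cd68 at 0.19. Vsig4 was at 0.12, Csf1r at 0.09 and Timd4 at 0.05, and the other Csf1r probe sets were at 0.36 and −0.27. In the sums of the dim lists that follow, signals under the floor were set to it. Those of 8 B cell markers summed to 145 and 175, with only Pax5, at 34.5 and 42.8, above the filter. Those of 9 dendritic cell markers summed to 179 and 174. Of these, Batf3 (0.34) and Zbtb46 (−0.21) were above the filter, and the other Zbtb46 probe set gave −0.96. The list median of 0.06 turned to −0.12 when all probe sets of a gene were summarised by their median. Xcr1 and Ccr7, named for their low level, were under the floor on both arrays.

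The general leukocyte genes had a median log2 ratio of 0.51, beside 0.42 for the class II members. Of 7, 6 were above the filter, 5 of them higher and 1 lower, and the list summed to 435 and 563, or 1.29-fold. The adaptor Tyrobp was at 104 and 157, a log2 ratio of 0.59, and Cd53, Coro1a and Fcer1g, named after their values were seen, were 1.48-fold, 1.44-fold and 1.41-fold higher. Ptprc, named because its product CD45 defines leukocytes, was at 74.1 and 83.4, 1.12-fold higher. The 1 lower gene, Laptm5, was at −0.13, and its other probe sets at 0.0019 and 0.35. The part of leukocyte content in the class II differences was not tested.

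Other leukocyte markers gave no single direction. Among monocyte and neutrophil markers only Lyz2 was above the filter, at 149 and 192, and the list summed to 237 and 278. T and NK cell markers summed to 120.0 and 133, with Cd8a the only gene above the filter at 31.2 and 31.1 and the 8 others too dim to compare. The T cell receptor genes Cd3d and Cd3g, the receptor Cd2 and the NK cell receptor Ncr1, named for that low level, were under the floor on both arrays. Plasma cell markers summed to 181 and 145, with log2 ratios of −0.56 for Ighm, −0.23 for Jchain and 0.08 for Mzb1. The 4 Ighm probe sets above the filter ranged from −1.20 to 0.31, with a median of −0.25.

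Markers of the other liver cells went different ways. Of 8 liver endothelial markers 7 were lower, with a median of −0.29, summed signals of 1702 and 1263 and Clec4g the lowest at 745 and 464. All 6 stellate cell markers above the filter were higher by their brightest probe set, with a median of 0.27, led by Dcn (0.37) and Des (0.37). The other Rgs5 probe sets disagreed, with log2 ratios of −0.74 and 0.28. Col1a1, under the filter, was at 31.3 and 17.2, 1.82-fold lower. The stellate list summed to 2562 and 3082. The cholangiocyte list summed to 107 and 60.8, with only Sox9, at 42.0 and 26.1, above the filter. Hepatocyte markers, the check of the labelled tissue, summed to 47977 and 45419.8, with a median of −0.07 and the largest differences in Apob (−0.29) and Alb (−0.18).

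**Figure D4:**
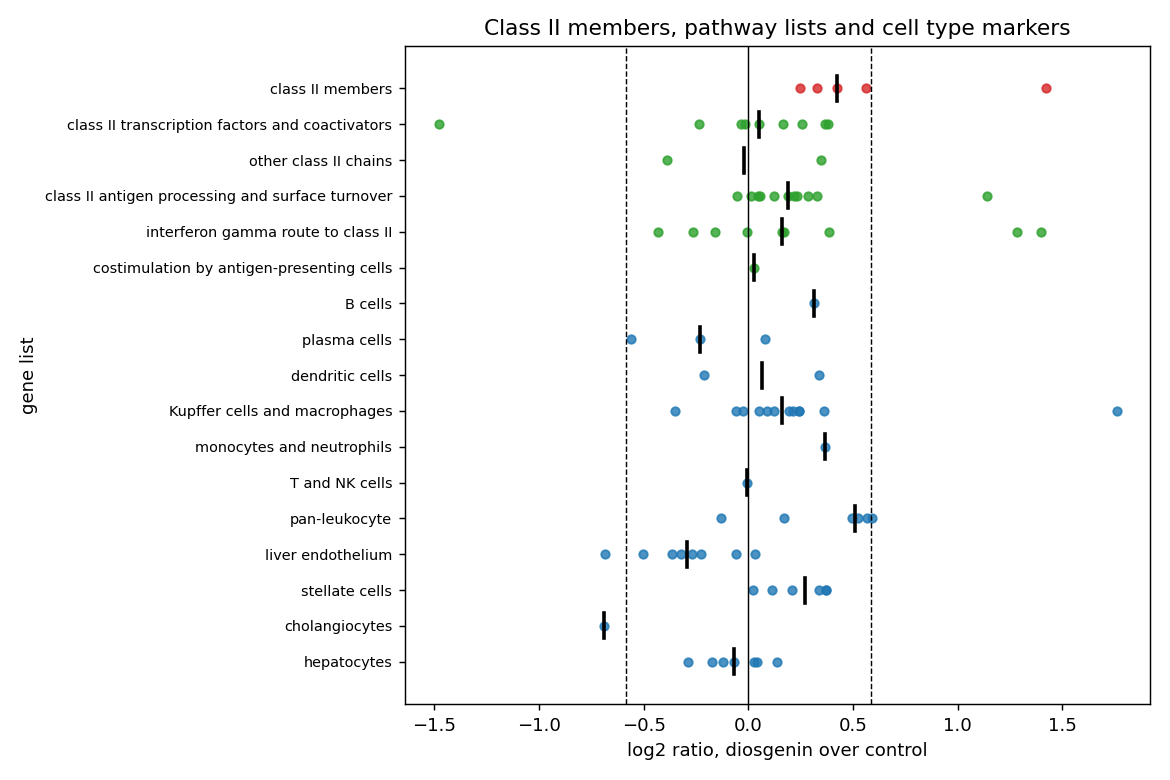
Log2 ratio of diosgenin over control for each gene above the filter in the class II members (red), the pathway lists (green) and the cell type markers (blue), with a black bar at each median and dashed lines at 1.5-fold. The class II members have a median of 0.42, the leukocyte genes 0.51 and the Kupffer cell markers 0.16, and endothelial markers lie mostly to the left of 0.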

How the data were processed

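The deposited values were linear array intensities, 1 per probe set for 45101 probe sets. Per the labels' protocols, 5 µg of pooled total RNA per array was labelled with biotin, and per the submitters' processing notes GCOS was used, without a version. Neither the labels nor the notes name the summary algorithm, the scaling target or any detection calls (not given in the sources used here). The trimmed mean of both arrays was 96.9, so no further scaling was applied. Probe sets were named from GEO's platform annotation: 34958 had 1 symbol (34945 without controls), 932 several and 9211 none. Signals under 10.7, the 40th percentile of all signals, were set to that floor before log2 ratios were taken. For each gene the probe set with the highest mean signal was used, and genes were kept at means of at least 28.4, the 60th percentile. No p-value was computed, as there was 1 array per diet, and this number of arrays limits the precision.

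The members and lists were chosen with earlier results of these data known. From each list, genes past 1.5-fold were named, or else the 2 with the largest ratio, and a few others were named for their role, their place in the genome, their low level or after their values were seen. Python 3.11.15, numpy 2.4.6, pandas 2.3.3 and matplotlib 3.10.9 were used. Alternatives changed the floor, the filter, the scaling, the fold and the choice of probe set.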

Additional observations from a re-analysis of the deposited data

How the results depend on the processing

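Other floors could not change the log2 ratios of H2-Eb1, H2-Aa, H2-Ab1, H2-DMa and Cd74, as the signals used lay above each floor. Centring shifted all of them alike, by the median over all genes of −0.0054. Under quantile normalization they moved by less than 0.28, the spread between probe sets of a gene. With the median of the probe sets H2-Ab1 was at 0.53. Without _x_at, _s_at and _a_at probe sets only H2-Eb1 and H2-DMa were left, so 2 members were higher, with a median of 0.88. Without the filter 2 member genes were at least 1.5-fold higher, the second being Ciita against the floor, and 1 member probe set, of H2-DMa, was at least 1.5-fold lower. Also without the filter, 1 B cell marker and 1 T and NK cell marker were at least 1.5-fold higher, 1 monocyte and neutrophil, 1 stellate cell and 3 cholangiocyte markers at least 1.5-fold lower, and the monocyte and neutrophil median was 0. The share of all genes or probe sets past 1.5-fold was not computed without the filter, so counts made without it have no background beside them. With the median of the probe sets, 2 endothelial markers and 1 hepatocyte marker were at least 1.5-fold lower. In all, 13 of the recomputed values moved and 151 did not. A count was taken as unmoved if it changed by no more than 1.5-fold, and a log2 ratio or median if by less than 0.28. Values among the 151 could therefore differ: without the filter 4 member probe sets were at least 1.5-fold higher, against 3 with it. No paired analysis was possible because each diet had 1 array.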

Other observations

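The dim B cell receptor gene Cd79a had a control signal of 9.86 and a diosgenin signal of 27.7, with a mean under the filter, whereas its partner Cd79b read 14.6 and 17.9 and the B cell gene Ms4a1 14.95 and 15.5. The interferon-induced chemokine Cxcl10, also under the filter, read 17.2 and 28.9. These genes were picked after their values were seen.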
